A study of Homo sapiens with 12 samples.

Results

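The liver X receptors (LXRs), a set of genes that they are known to switch on and the main lipid efflux and uptake genes of macrophages were followed in human induced microglia-like cells (iMGLs), which resemble the resident macrophages of the brain. The set holds 10 genes, chosen by name: the receptors NR1H3 (LXR alpha) and NR1H2 (LXR beta), the exporters ABCA1, ABCG1 and SCARB1, the lipoprotein genes APOC1 and PLTP, the ubiquitin ligase MYLIP, the phospholipid enzyme LPCAT3 and the scavenger receptor CD36. Each symbol matched 1 row of a count table of 57992 Ensembl gene IDs, and all 10 were among the 16022 genes tested. The cells were differentiated from H1, an established human pluripotent stem cell line, and carried either the knockout of the transcription factor gene MEF2C or no knockout. The groups were KO LPS BMS (knockout cells given bacterial lipopolysaccharide, LPS, together with BMS265246, named BMS in the labels and called a CDK2 inhibitor through the series title, 2 libraries), KO LPS (knockout with LPS, 2 libraries), KO (knockout with vehicle, 3 libraries), WT LPS (wild type with LPS, 2 libraries) and WT (wild type with vehicle, 3 libraries). The sources used here do not give doses, treatment times or the number of knockout clones, and no group analysed here had BMS without LPS or BMS in wild-type cells. The labels call the libraries biological replicates and give no culture, clone or day, so the p-values measure the spread between these libraries.

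LXRs are nuclear receptors that bind oxysterols, which are oxidised forms of cholesterol, and act on DNA as partners of the retinoid X receptors (RXRs). When a cell holds more cholesterol than it needs, LXRs raise the transcription of ABCA1 and ABCG1, the transporters that hand cholesterol to apolipoproteins and lipoprotein particles outside the cell, and of MYLIP, which marks lipoprotein receptors for degradation. In microglia and other macrophages this pathway is known for clearing the cholesterol taken up with myelin and dead cells.

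The promoter of ABCA1 is shown because it holds the best known LXR element of the set, and because the ABCA1 transcript was among those that changed most with LPS. An LXR and RXR pair binds a direct repeat of the hexamer AGGTCA with a spacer of 4 bases (DR4). RefSeq promoters (GRCh38.p14, 250 bases before to 50 bases after each start) were found for 8 of the 10 genes, with none for ABCG1 or SCARB1. They were searched on both strands for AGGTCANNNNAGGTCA, allowing 2 mismatches in the 12 fixed bases, an allowance chosen with the ABCA1 element known. The 250 bases before the RefSeq start of ABCA1, chr9:104928156-104928405 on the minus strand, read 5′ to 3′ in the sense of the gene with the match in capitals:
ABCA1: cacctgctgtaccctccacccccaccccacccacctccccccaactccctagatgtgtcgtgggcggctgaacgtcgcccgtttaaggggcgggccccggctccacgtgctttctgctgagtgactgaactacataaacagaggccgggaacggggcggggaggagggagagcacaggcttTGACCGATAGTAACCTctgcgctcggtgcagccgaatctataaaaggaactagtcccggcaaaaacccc
The match lies at chr9:104928209-104928224, 69 to 54 bases before the start, and reads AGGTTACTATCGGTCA on the other strand, with 2 mismatches to the motif. It was the only one found in the promoters of the 8 genes. Of all 35116 RefSeq promoter windows of that length, 822 (2.34%) held a match with up to 2 mismatches and 72 (0.205%) one with up to 1. A match is a description of the letters, and no binding was measured here.

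The libraries held 13888283 to 17639136 counted reads, so that 3 reads of a gene amounted to between 0.154 and 0.236 CPM, the number of its reads in every 1000000. Levels are given as CPM after scaling with TMM factors (0.872 to 1.117). Libraries of a group differed by more than counting noise in every group, by 2.1 to 5.36 chi-square units per degree of freedom in WT, KO and KO LPS BMS, 7.65 in WT LPS and 12.25 in KO LPS, so results that rest on the KO LPS pair are also given without each of its libraries where that changed a call. MEF2C transcripts averaged 43.9 ± 0.255 CPM in KO LPS BMS, 46.4 ± 0.618 in KO LPS, 133 ± 4.01 in KO, 50.6 ± 1.43 in WT LPS and 184 ± 7.86 in WT (SD, n = 2, 2, 3, 2 and 3). The gene was therefore still transcribed in the libraries labelled KO, and was called lower in KO than in WT (log2 fold change -0.47 ± 0.05 SE, edgeR adjusted p = 4e-07). All 9 markers of microglia and macrophages were detected, with sums of 4820 to 6060 CPM. The summed markers of 5 other lists (mesenchymal, endothelial, erythroid and megakaryocytic, pluripotent, and hepatocyte and adipocyte genes) stood at 0 to 57.2 CPM. The endothelial sum was 7.16 to 7.6 CPM in KO, 2.81 to 3.86 in WT, 5.13 to 5.55 in KO LPS and 1.38 to 1.4 in WT LPS. The erythroid and megakaryocytic sum was 41.6 to 44.2, 32.2 to 39, 42.6 to 49.3 and 25.7 to 27.9 in that order. Mesenchymal and pluripotent sums overlapped between the genotypes. The part of these sums in the calls below was not tested. The 7 markers of monocytes and granulocytes summed to 448 to 496 CPM in KO LPS BMS, 986 to 997 in KO LPS, 411 to 426 in KO, 773 to 827 in WT LPS and 195 to 208 in WT. Of these genes ELANE, a neutrophil granule protease gene, was at 0 in every group except WT LPS, where it averaged 0.0332 CPM. In bulk RNA fewer cells of a type and less RNA per cell cannot be told apart.

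Levels of different genes are comparable only per length, so each CPM was divided by the kilobases of exon of its gene. On that scale PLTP was the most abundant of the 10 in every group, at 112 CPM per kb in KO LPS BMS, 143 in KO LPS, 91.5 in KO, 174 in WT LPS and 107 in WT. APOC1 came next in every group, between 36.4 and 55.2 CPM per kb, and LPCAT3 was last in every group, between 3.33 and 4.33 CPM per kb. The LPCAT3 value divides by 4.725 kb of exon, of which 3100 bases are shared with EMG1, and would be higher if reads there were not counted, so its place is uncertain. LPCAT3 overlapped MYLIP, its neighbour in the order, in KO LPS BMS. The middle of the order changed with treatment. With vehicle, NR1H2 and ABCG1 came after APOC1 in both genotypes (21 and 17 CPM per kb in KO, 20.2 and 17.5 in WT), above ABCA1 (11.9 in KO, 10.8 in WT). With LPS, ABCA1 (22.9 CPM per kb in KO LPS, 23.9 in WT LPS) and NR1H3 (27 in KO LPS, 20.1 in WT LPS) stood above ABCG1 (9.5 in KO LPS, 7.9 in WT LPS). Neighbours whose libraries overlapped were NR1H3, NR1H2 and ABCA1 in KO LPS, NR1H3 and CD36 in KO, and SCARB1 with ABCA1 and MYLIP with CD36 in WT.

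**Figure D1:**
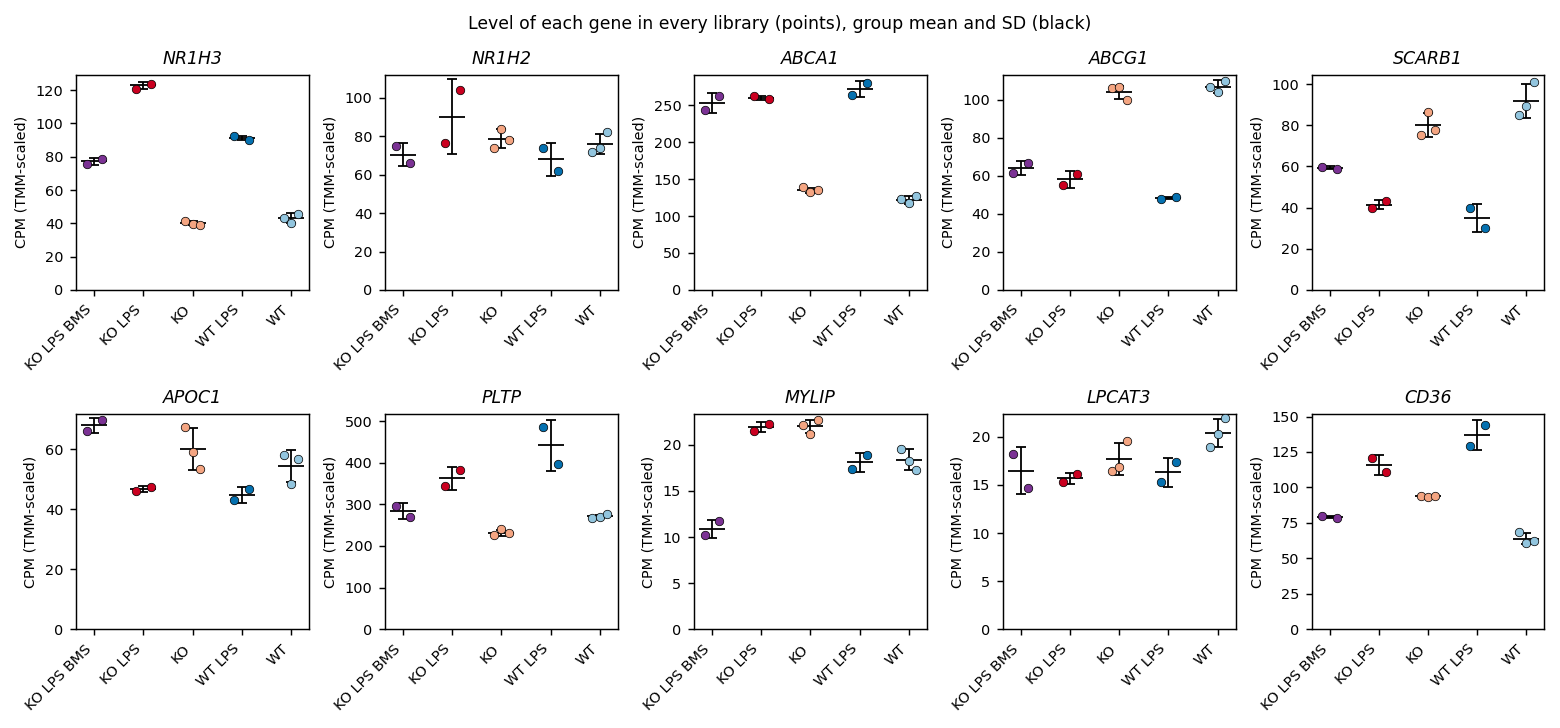
Level of each of the 10 genes (vertical axis, TMM-scaled CPM) in every library (points) of the 5 groups, with the group mean and SD in black. ABCA1 and NR1H3 stand higher in the 3 LPS groups than in KO and WT, ABCG1 and SCARB1 stand lower there, and MYLIP is lowest in KO LPS BMS at 10.2 and 11.7 CPM.

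Under LPS the set split. In wild-type cells 4 of the 10 genes were called higher (ABCA1, NR1H3, CD36 and PLTP), 4 lower (SCARB1, ABCG1, LPCAT3 and APOC1) and 2 were not called (edgeR quasi-likelihood test, Benjamini-Hochberg adjusted p under 0.05), where 59.7% of all genes tested were called, 28.9% higher and 30.8% lower. Their median log2 fold change was -0.09, beside -0.07 over all genes. In knockout cells the same 4 were called higher, 3 were called lower (SCARB1, ABCG1 and APOC1) and 3 were not called, beside 44.8% of all genes called (24.5% higher and 20.3% lower), with a median of 0.10 beside 0.00. Both shares are large, so the directions of the single genes say more than the number called. The monocyte and granulocyte sum given above was also higher in KO LPS and WT LPS than in KO and WT, higher in KO than in WT, and lower in KO LPS BMS than in KO LPS, and its part in these calls was not tested. S100A8, S100A9 and VCAN moved with that sum, each called higher in those LPS comparisons and in KO against WT, and lower with BMS. FCN1, another gene of the list, went the other way, with means of 70.1 ± 6.38 CPM in KO LPS BMS, 53.2 ± 3.51 in KO LPS, 83.6 ± 4.27 in KO, 43.5 ± 2.04 in WT LPS and 92.5 ± 4.78 in WT (SD), where KO against WT was not called (edgeR adjusted p = 0.114).

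Fewer of them were called between the genotypes, with log2 fold changes of at most 0.55 in size at matched treatment. In KO against WT 3 genes were called higher (CD36, MYLIP and ABCA1), 1 lower (PLTP) and 6 were not called, where 21.6% of all genes were called (10.2% higher and 11.4% lower). In KO LPS against WT LPS 3 were called higher (NR1H3, ABCG1 and NR1H2), 2 lower (PLTP and CD36) and 5 were not called, where 30.6% of all genes were called (15.6% higher and 15% lower). The test of whether the LPS response itself differed between the genotypes called NR1H3 and ABCG1 higher, meaning a more positive response in knockout cells, CD36 lower, and 7 genes not, where 12% of all genes were called (6.42% higher and 5.57% lower). The medians of the 10 genes were 0.01, 0.16 and 0.08 in these comparisons, beside -0.02, 0.03 and 0.05 over all genes. Adding BMS to LPS in knockout cells was followed by 2 calls higher (APOC1 and SCARB1), 4 lower (MYLIP, NR1H3, CD36 and PLTP) and 4 genes not called, where 47.8% of all genes were called (22.3% higher and 25.5% lower), with a median of -0.20 beside -0.04. KO LPS BMS against KO, in which both agents differ, gave 3 higher (ABCA1, NR1H3 and PLTP), 4 lower (MYLIP, ABCG1, SCARB1 and CD36) and 3 not called, where 62.7% of all genes were called (30.3% higher and 32.4% lower). Several comparisons share libraries, such as KO LPS in the LPS and the BMS comparison, so their values are set side by side and not counted as separate support.

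**Figure D2:**
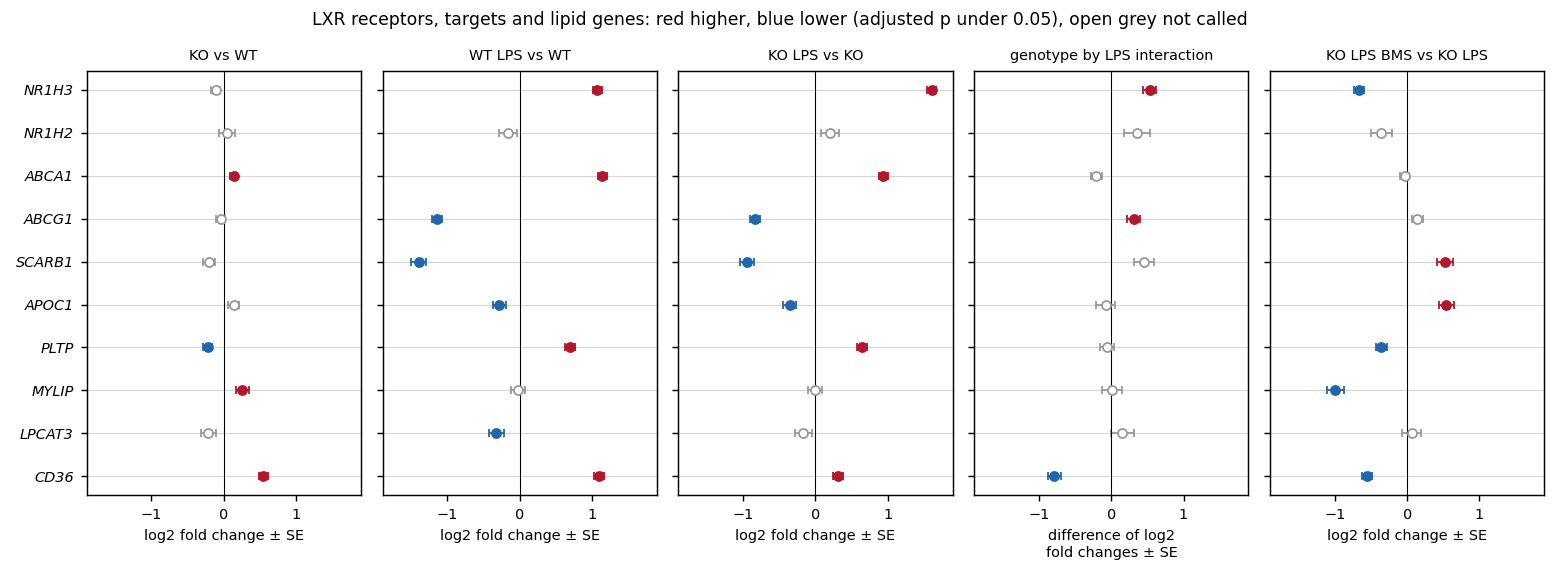
Log2 fold change ± SE (horizontal axis) of each gene in 4 comparisons, and the difference between the LPS responses of the genotypes (the panel headed interaction). Red points are called higher, blue lower and open grey points are not called; in both LPS panels ABCA1, NR1H3, PLTP and CD36 lie right of 0 and ABCG1, SCARB1 and APOC1 left of it.

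Of the receptors, NR1H3 was called higher with LPS in both genotypes and NR1H2 was called in neither. NR1H3 (ENSG00000025434, chr11:47248300-47269032, GRCh38, GENCODE 29) encodes LXR alpha, the receptor that in human macrophages is itself an LXR target. It had 75.9 and 78.5 CPM in KO LPS BMS, 121 and 124 in KO LPS, 41.4, 39.9 and 39.1 in KO, 92.2 and 90.3 in WT LPS, and 43.5, 40.4 and 45.8 in WT. The LPS groups did not overlap the vehicle groups, and the 3 LPS groups did not overlap each other, with KO LPS highest. The level was 3.06-fold higher in KO LPS than in KO (log2 1.61 ± 0.06, edgeR adjusted p = 2.32e-15) and 2.11-fold higher in WT LPS than in WT (1.08 ± 0.06, edgeR adjusted p = 2.11e-12). The response was larger in knockout cells by 0.53 ± 0.09 on the log2 scale (edgeR adjusted p = 0.000469), and stayed between 0.49 and 0.58 with any 1 library left out. With BMS the level was lower than in KO LPS by a log2 fold change of -0.67 ± 0.07 (edgeR adjusted p = 8.02e-08), while it stayed above KO (0.94 ± 0.07, edgeR adjusted p = 3.69e-11). Without LPS the genotypes overlapped (KO against WT -0.11 ± 0.06, edgeR adjusted p = 0.237). NR1H3 shares 189 exon bases with ACP2, a lysosomal acid phosphatase gene on the opposite strand, and without a stated strand setting reads there cannot be told apart. ACP2 was itself higher with LPS (0.69 ± 0.06 in KO LPS against KO and 0.43 ± 0.06 in WT LPS against WT). Like that of NR1H3, its response was larger in knockout cells (0.26 ± 0.08, edgeR adjusted p = 0.0451). With BMS it was higher, not lower (0.23 ± 0.06 against KO LPS). The part of shared reads in the NR1H3 values was not tested.

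NR1H2 (ENSG00000131408, chr19:50329653-50382982) encodes LXR beta, the form found in most tissues. It had 74.9 and 66.1 CPM in KO LPS BMS, 76.6 and 104 in KO LPS, 74.1, 83.9 and 78.3 in KO, 74.2 and 61.8 in WT LPS, and 71.8, 74.1 and 82.1 in WT. All groups lay close together except for the second KO LPS library, which was highest of the 12. KO LPS against KO gave 0.20 ± 0.13 (edgeR adjusted p = 0.238) with all libraries, 0.36 without the first KO LPS library (edgeR adjusted p = 0.0059) and -0.04 without the second (edgeR adjusted p = 0.803), which are the lowest and highest p of the alternatives. The difference of the LPS responses was likewise not called with all libraries (0.36 ± 0.18, edgeR adjusted p = 0.239). It was 0.53 without the first KO LPS library (edgeR adjusted p = 0.00639) and 0.12 without the second (edgeR adjusted p = 0.686), again the lowest and highest p of the alternatives. WT LPS against WT (-0.16 ± 0.13, edgeR adjusted p = 0.3) and KO LPS BMS against KO (-0.16 ± 0.13, edgeR adjusted p = 0.291) were not called. Both were called lower when libraries were scaled by size alone (-0.45 and -0.50, edgeR adjusted p = 0.00343 and 0.00153). These were the lowest values of the alternatives, which reached 0.878 and 0.754. With all libraries and TMM factors the only call was KO LPS against WT LPS (0.41 ± 0.14, edgeR adjusted p = 0.0461). It was lost under 10 of 18 alternatives, over which the adjusted p ran between 4.08e-05 and 0.32, and without that second KO LPS library the log2 fold change was 0.17 (edgeR adjusted p = 0.32). KO LPS BMS against KO LPS was not called (-0.36 ± 0.14, edgeR adjusted p = 0.055) but was under 6 of 18 alternatives, with adjusted p between 0.00039 and 0.389, among them without the first KO LPS library (-0.52, edgeR adjusted p = 0.000454). Within each library the ratio of NR1H3 to NR1H2, both per kb, was 0.839 and 0.984 in KO LPS BMS, 1.31 and 0.987 in KO LPS, 0.462, 0.394 and 0.414 in KO, 1.03 and 1.21 in WT LPS, and 0.501, 0.452 and 0.462 in WT. LXR alpha transcripts were thus the less abundant form in every vehicle library and between 0.839 and 1.31 times LXR beta in the LPS libraries.

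The exporters went opposite ways with LPS. ABCA1 (ENSG00000165029, chr9:104781002-104928237), which loads cholesterol and phospholipid onto lipid-poor apolipoproteins, had 243 and 262 CPM in KO LPS BMS, 262 and 258 in KO LPS, 139, 132 and 135 in KO, 264 and 280 in WT LPS, and 123, 117 and 127 in WT. Every LPS library, with or without BMS, was above every vehicle library. The level was 1.92-fold higher in KO LPS than in KO (log2 0.94 ± 0.06, edgeR adjusted p = 3.78e-12) and 2.22-fold higher in WT LPS than in WT (1.15 ± 0.06, edgeR adjusted p = 6.08e-14). The difference between these responses was not called (-0.21 ± 0.08, edgeR adjusted p = 0.0976). It was called under 1 of 18 alternatives, with only the groups compared (-0.26, edgeR adjusted p = 0.0464, the lowest over them, the highest being 0.297). BMS left ABCA1 at the KO LPS level within the error (-0.04 ± 0.06, edgeR adjusted p = 0.613), and the libraries of those groups overlapped. KO was slightly above WT (0.14 ± 0.05, edgeR adjusted p = 0.0484), a call that was lost under 13 of 18 alternatives, with adjusted p between 0.00507 and 0.206 over them, and that did not survive leaving out any of the 3 KO or 3 WT libraries (0.11 to 0.17, edgeR adjusted p between 0.0512 and 0.206).

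ABCG1 (ENSG00000160179, chr21:42199689-42297244), which delivers sterols to particles that already carry lipid, had 61.5 and 66.7 CPM in KO LPS BMS, 55.1 and 61.2 in KO LPS, 106, 107 and 100 in KO, 48 and 48.7 in WT LPS, and 107, 104 and 110 in WT. Every LPS library was below every vehicle library. The level in KO LPS was 0.558 times that in KO (log2 -0.84 ± 0.07, edgeR adjusted p = 5.56e-10), and that in WT LPS was 0.452 times that in WT (-1.15 ± 0.07, edgeR adjusted p = 1.88e-12). Under LPS the knockout stood higher than wild type by 0.26 ± 0.07 (edgeR adjusted p = 0.0102). The call was lost under 2 of 18 alternatives, with edgeR or DESeq2 adjusted p between 0.00405 and 0.166. These were only the groups compared (0.26, edgeR adjusted p = 0.106) and leaving out the second KO LPS library (0.18, edgeR adjusted p = 0.166). The difference of the LPS responses, 0.31 ± 0.09 (edgeR adjusted p = 0.0364), was lost under 12 of 18 alternatives, with adjusted p between 0.0181 and 0.215. With the second KO LPS library left out it was 0.23 (edgeR adjusted p = 0.215). BMS against KO LPS gave 0.14 ± 0.07 (edgeR adjusted p = 0.121), with the lower BMS library (61.5 CPM) just above the higher KO LPS library (61.2 CPM), and 0.22 without the second KO LPS library (edgeR adjusted p = 0.0473, the lowest of 18 alternatives, the highest being 0.548).

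SCARB1 (ENSG00000073060, chr12:124776856-124882668) encodes the scavenger receptor through which cholesterol moves between cells and high-density lipoprotein in either direction. It had 59.8 and 58.7 CPM in KO LPS BMS, 39.9 and 43 in KO LPS, 75.5, 86.6 and 77.9 in KO, 39.6 and 30.1 in WT LPS, and 84.8, 89.4 and 101 in WT. The BMS libraries lay between the LPS and the vehicle libraries and overlapped neither. LPS lowered it to 0.518 times KO in KO LPS (log2 -0.95 ± 0.10, edgeR adjusted p = 6.77e-07) and to 0.38 times WT in WT LPS (-1.40 ± 0.10, edgeR adjusted p = 3.15e-09). BMS raised it above KO LPS by 0.52 ± 0.11 (edgeR adjusted p = 0.00117), and it remained below KO (-0.43 ± 0.10, edgeR adjusted p = 0.00107). The smaller response of the knockout, 0.45 ± 0.14, was not called (edgeR adjusted p = 0.0533) but was called under 5 of 18 alternatives, among them without the first WT LPS library (0.66, edgeR adjusted p = 0.00177, the lowest over them, the highest being 0.243). KO against WT was not called (-0.20 ± 0.08, edgeR adjusted p = 0.114) but was under 4 of 18 alternatives, with adjusted p between 0.0144 and 0.399. KO LPS against WT LPS was not called either (0.25 ± 0.12, edgeR adjusted p = 0.117) but was under 1, with adjusted p between 0.00448 and 0.75.

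The opposite moves of the exporters show most plainly inside each library, where scaling between libraries plays no part. The ratio of ABCA1 to ABCG1, both per kb, averaged 2.13 ± 0.00805 in KO LPS BMS, 2.42 ± 0.204 in KO LPS, 0.702 ± 0.0306 in KO, 3.03 ± 0.0948 in WT LPS and 0.616 ± 0.00777 in WT (SD, n = 2, 2, 3, 2 and 3). ABCG1 was thus the more abundant transporter transcript in all 6 vehicle libraries and ABCA1 in all 6 LPS libraries. The groups did not overlap on this ratio. The ratio of ABCA1 to SCARB1 averaged 2.91 in KO LPS BMS, 4.29 in KO LPS, 1.16 in KO, 5.43 in WT LPS and 0.914 in WT. An exact permutation test of 2 against 3 libraries cannot go below p = 0.1, so these ratios are given as values.

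**Figure D3:**
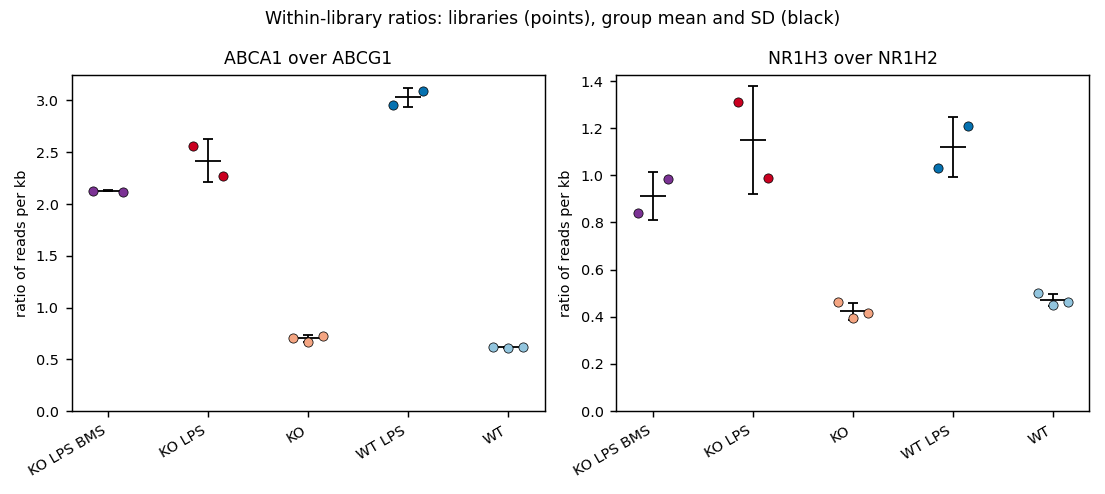
Ratio of ABCA1 to ABCG1 (left) and of NR1H3 to NR1H2 (right), as reads per kb of exon within 1 library (vertical axes, from 0), for every library (points) with the group mean and SD in black. The left ratio is below 1 in the 6 vehicle libraries and above 2 in the 6 LPS libraries.

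The secreted lipoprotein genes also parted. PLTP (ENSG00000100979, chr20:45898621-45912155), which encodes the protein that moves phospholipids between lipoprotein particles, had 297 and 270 CPM in KO LPS BMS, 344 and 383 in KO LPS, 226, 240 and 232 in KO, 486 and 398 in WT LPS, and 268, 270 and 277 in WT. It was higher with LPS in both genotypes, in KO LPS against KO by 0.64 ± 0.07 (edgeR adjusted p = 2.32e-07) and in WT LPS against WT by 0.70 ± 0.07 (edgeR adjusted p = 3.43e-08). The knockout was lower than wild type without LPS (-0.22 ± 0.06, edgeR adjusted p = 0.0152) and with it (-0.28 ± 0.08, edgeR adjusted p = 0.00921). The first of these was lost without the third WT library (-0.21, edgeR adjusted p = 0.0632), the first KO library (-0.20, edgeR adjusted p = 0.0698) or the last KO library (-0.22, edgeR adjusted p = 0.0568). The second was lost without the first WT LPS library (-0.14, edgeR adjusted p = 0.181) and with only the groups compared (-0.29, edgeR adjusted p = 0.0933). Over the 18 alternatives the edgeR or DESeq2 adjusted p lay between 0.000153 and 0.0698 for the first and between 1.16e-05 and 0.181 for the second. With BMS the level was below KO LPS (-0.36 ± 0.08, edgeR adjusted p = 0.000849) and above KO (0.29 ± 0.07, edgeR adjusted p = 0.0016), although scaling by library size alone turned the comparison with KO to -0.05 (edgeR adjusted p = 0.527, the highest of the alternatives, the lowest being 5.68e-06). PLTP shares 200 exon bases with the opposite-strand gene CTSA, which encodes a lysosomal carboxypeptidase and was higher with BMS (0.41 ± 0.07 against KO LPS).

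APOC1 (ENSG00000130208, chr19:44914247-44919349), a small apolipoprotein made by macrophages, had 66.2 and 69.6 CPM in KO LPS BMS, 45.9 and 47.3 in KO LPS, 67.3, 59.1 and 53.4 in KO, 42.9 and 46.7 in WT LPS, and 58.1, 48.5 and 56.7 in WT. The LPS libraries without BMS were all below the vehicle libraries, and the BMS libraries stood at the top of the KO range. KO LPS was lower than KO by a log2 fold change of -0.36 ± 0.09 (edgeR adjusted p = 0.00313). WT LPS was lower than WT by -0.28 ± 0.09 (edgeR adjusted p = 0.0134), a call lost without the first WT library (-0.23, edgeR adjusted p = 0.0584) or the first WT LPS library (-0.22, edgeR adjusted p = 0.129, the highest of the alternatives, the lowest being 1.53e-05). BMS raised APOC1 above KO LPS by 0.54 ± 0.10 (edgeR adjusted p = 0.000164), and KO LPS BMS against KO was not called (0.18 ± 0.09, edgeR adjusted p = 0.0811), but was without the first KO library (0.27, edgeR adjusted p = 0.0121, the lowest of the alternatives, the highest being 0.34). KO against WT (0.14 ± 0.08, edgeR adjusted p = 0.255) and KO LPS against WT LPS (0.06 ± 0.10, edgeR adjusted p = 0.72) were not called. APOC1 shares 532 exon bases on its own strand with AC011481.3, so reads there may have been counted for either gene.

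MYLIP was called with BMS and not with LPS. MYLIP (ENSG00000007944, chr6:16129125-16148248), also called IDOL, encodes the ubiquitin ligase that targets lipoprotein receptors for degradation. It had 10.2 and 11.7 CPM in KO LPS BMS, 21.5 and 22.3 in KO LPS, 22.1, 21.2 and 22.7 in KO, 17.4 and 18.9 in WT LPS, and 19.6, 18.2 and 17.3 in WT. The BMS libraries were the lowest of the 12, at 0.501 times KO LPS (log2 -1 ± 0.12, edgeR adjusted p = 3.79e-07) and 0.5 times KO (-1 ± 0.11, edgeR adjusted p = 3.87e-08). LPS gave -0.01 ± 0.10 in KO LPS against KO (edgeR adjusted p = 0.97) and -0.02 ± 0.10 in WT LPS against WT (edgeR adjusted p = 0.895), and both were called lower when libraries were scaled by size alone (-0.26 and -0.30, edgeR adjusted p = 0.0294 and 0.0109), the lowest values of the alternatives, which reached 0.99 and 0.961. All knockout libraries without BMS were above all wild-type libraries. KO against WT was called (0.26 ± 0.09, edgeR adjusted p = 0.0322) and was lost under 8 of 18 alternatives, with adjusted p between 0.00835 and 0.141, among them without the second WT library (0.25), the third (0.22), or any of the KO libraries (0.24 to 0.29). KO LPS against WT LPS was not called (0.27 ± 0.11, edgeR adjusted p = 0.0617).

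LPCAT3 (ENSG00000111684, chr12:6976186-7018510), which builds polyunsaturated fatty acids into membrane phospholipids, varied least, with a root mean square about its mean of 0.171 on the log2 scale over the 12 libraries. It had 18.2 and 14.7 CPM in KO LPS BMS, 15.3 and 16.1 in KO LPS, 16.5, 16.9 and 19.6 in KO, 15.3 and 17.4 in WT LPS, and 19, 20.3 and 22 in WT. The WT libraries were above all LPS libraries and overlapped the KO libraries. Its only call was WT LPS against WT (-0.32 ± 0.11, edgeR adjusted p = 0.0188), which was lost under 4 of 18 alternatives, with adjusted p between 5.95e-05 and 0.178, among them without the third WT library (-0.27) or the first WT LPS library (-0.23). The other 6 comparisons lay between -0.21 and 0.15 with SEs of 0.10 to 0.16. It shares 3100 exon bases with EMG1 on the opposite strand, a ribosome assembly gene that was counted at group means of only 0.564 to 1.14 CPM.

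CD36 (ENSG00000135218, chr7:80369575-80679277), the receptor for oxidised lipoproteins and long-chain fatty acids, had the largest genotype difference of the set with vehicle and in its response to LPS. It had 79.6 and 78.3 CPM in KO LPS BMS, 121 and 111 in KO LPS, 93.7, 93.2 and 93.9 in KO, 129 and 144 in WT LPS, and 68.3, 60.6 and 62.5 in WT. Knockout cells stood higher than wild-type cells with vehicle and lower with LPS. KO was 1.47-fold above WT (log2 0.55 ± 0.06, edgeR adjusted p = 3.4e-07), and KO LPS was 0.85 times WT LPS (-0.24 ± 0.07, edgeR adjusted p = 0.0163). The rise with LPS was 1.24-fold in KO LPS against KO (0.31 ± 0.07, edgeR adjusted p = 0.000453) and 2.15-fold in WT LPS against WT (1.10 ± 0.07, edgeR adjusted p = 2.16e-12), a difference of -0.79 ± 0.09 between the responses (edgeR adjusted p = 7.75e-06) that lay between -0.88 and -0.71 with any 1 library left out. BMS lowered CD36 below KO LPS (-0.56 ± 0.07, edgeR adjusted p = 2.2e-06) and below KO (-0.25 ± 0.07, edgeR adjusted p = 0.00346). Scaling by library size alone ended the call in KO LPS against KO (0.06, edgeR adjusted p = 0.475, the highest over the alternatives, the lowest being 0.000145). KO LPS against WT LPS was lost under 4 of 18 alternatives. These were scaling by library size alone (-0.19, edgeR adjusted p = 0.0531) and only the groups compared (-0.24, edgeR adjusted p = 0.104). The others left out the second WT LPS library (-0.16) or the second KO LPS library (-0.18).

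The rest of the pathway was read from 5 lists of 42 other genes, of which 36 passed the filter on low counts. With LPS 11 were called higher and 17 lower in WT LPS against WT (median -0.26, beside -0.07 over all genes), and 10 higher and 12 lower in KO LPS against KO (median -0.02, beside 0.00). The shares of all genes called there were 59.7% and 44.8%. KO against WT gave 10 higher and 9 lower, beside 21.6% of all genes called, and KO LPS against WT LPS 14 and 7, beside 30.6%. The difference of the LPS responses gave 11 and 4, beside 12% of all genes. KO LPS BMS against KO LPS gave 15 and 8, beside 47.8%, and KO LPS BMS against KO 16 and 9, beside 62.7%. The genes ABCG4, APOC4, CETP, CYP46A1, CYP7B1 and FABP4 were too low to test.

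Other known LXR targets were divided too, with 3 of 10 called higher and 5 lower with LPS in each genotype, where 44.8% of all genes were called in KO LPS against KO and 59.7% in WT LPS against WT (medians of -0.60 and -1.01 in the same order). LPL, lipoprotein lipase, had 1050 and 1010 CPM in KO LPS, 349, 348 and 347 in KO, 1280 and 1330 in WT LPS, and 240, 246 and 222 in WT. It was 2.96-fold higher in KO LPS than in KO and 5.53-fold higher in WT LPS than in WT. SMPDL3A, a phosphodiesterase gene that is an LXR target in human macrophages, was 3.56-fold higher in KO LPS than in KO and 6.91-fold higher in WT LPS than in WT. The responses of both were smaller in knockout cells (LPL -0.90 ± 0.07, edgeR adjusted p = 4.39e-08, and SMPDL3A -0.96 ± 0.11, edgeR adjusted p = 8.05e-06). EEPD1, an LXR target that stabilises ABCA1 protein in macrophages, went the other way from ABCA1, with 8.19 and 6.77 CPM in KO LPS, 34.1, 36.4 and 36.3 in KO, 5.65 and 4.38 in WT LPS, and 47, 45.8 and 46 in WT. MERTK, the receptor for engulfing dead cells, and SCD, which makes monounsaturated fatty acids, were lower with LPS and rose with BMS. MERTK had 168 and 171 CPM in KO LPS BMS, 69.3 and 62.7 in KO LPS and 163, 155 and 161 in KO (KO LPS BMS against KO LPS 1.36 ± 0.07, edgeR adjusted p = 1.07e-12). SCD had 2280 and 2260 CPM in KO LPS BMS, 995 and 918 in KO LPS and 1400, 1440 and 1460 in KO (KO LPS BMS against KO LPS 1.25 ± 0.05, edgeR adjusted p = 4.68e-14). SMPDL3A went down with BMS, at 35.8 and 28.2 CPM in KO LPS BMS, against 79.8 and 82.1 in KO LPS (-1.35 ± 0.09, edgeR adjusted p = 1.05e-10). LPL was not called with BMS, at 1030 and 998 CPM in KO LPS BMS.

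**Figure D4:**
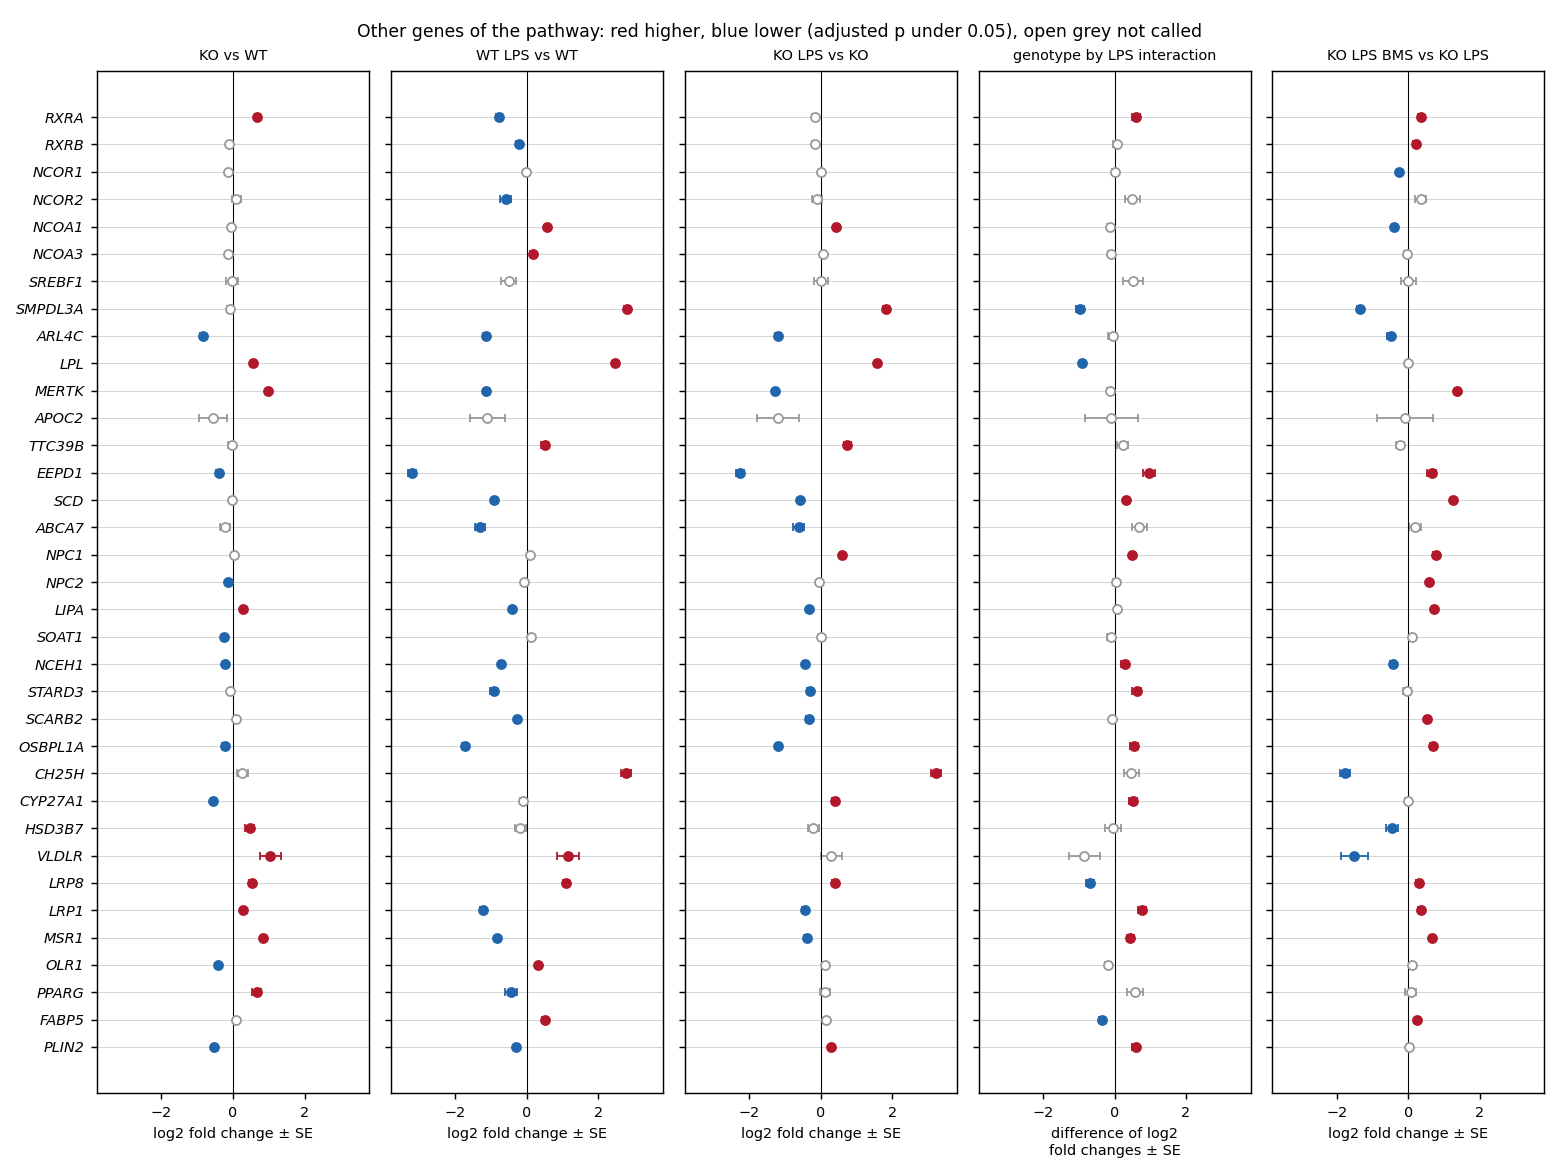
Log2 fold change ± SE (horizontal axes) of tested genes of the 5 pathway lists in 4 comparisons, and the difference between the LPS responses of the genotypes. Red points are called higher, blue lower and open grey points are not called; SMPDL3A, LPL and CH25H lie far right in both LPS panels and EEPD1 far left.

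Among the receptor's partners and cofactors, RXRA, which encodes the RXR alpha partner, had 394 and 349 CPM in KO LPS BMS, 266 and 319 in KO LPS, 306, 343 and 338 in KO, 124 and 117 in WT LPS, and 193, 209 and 213 in WT. It was above wild type in every knockout library, in KO against WT by 0.68 ± 0.07 (edgeR adjusted p = 7.21e-07) and in KO LPS against WT LPS by 1.28 ± 0.09 (edgeR adjusted p = 5.73e-09). LPS lowered it in wild type (-0.77 ± 0.08, edgeR adjusted p = 1.92e-07), and the responses of the genotypes differed by 0.60 ± 0.11 (edgeR adjusted p = 0.00161). The coactivator gene NCOA1 was higher with LPS in both genotypes (0.44 ± 0.06 in KO LPS against KO, 0.56 ± 0.06 in WT LPS against WT) and lower with BMS (-0.40 ± 0.07). Of the 6 genes of this list, 1 was called in KO LPS against KO and 5 in WT LPS against WT, of which 2 were higher and 3 lower. The shares of all genes called there were 44.8% and 59.7%.

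Of the 8 genes of sterol trafficking, hydrolysis and esterification, more were called lower than higher with LPS, and more higher than lower with BMS. WT LPS against WT called 0 higher and 5 lower (median -0.34), where 59.7% of all genes were called, 30.8% lower (median -0.07). KO LPS against KO called 1 and 5 (median -0.32), beside 44.8% of all genes, 20.3% lower (median 0). KO LPS BMS against KO LPS called 5 and 1 (median 0.55), beside 47.8% of all genes, 22.3% higher (median -0.04). OSBPL1A, an oxysterol-binding protein gene, was lower in KO LPS than in KO (-1.18 ± 0.08, edgeR adjusted p = 9.77e-11) and lower in WT LPS than in WT (-1.72 ± 0.09, edgeR adjusted p = 9.84e-14). NPC1, which exports cholesterol from lysosomes, had 384 and 386 CPM in KO LPS BMS, 223 and 231 in KO LPS, 151, 152 and 150 in KO, 154 and 164 in WT LPS, and 151, 148 and 149 in WT. It was the only one of the 8 called higher with LPS, in KO LPS against KO (0.59 ± 0.05, edgeR adjusted p = 2.79e-09), and was not called in wild type, a difference of 0.49 ± 0.07 between the responses (edgeR adjusted p = 0.000108). With BMS it was higher again (0.76 ± 0.06 against KO LPS, edgeR adjusted p = 4.41e-10), as was LIPA, the lysosomal acid lipase gene (0.72 ± 0.06, edgeR adjusted p = 2.46e-09). NCEH1, which frees cholesterol from stored esters, was the member that was lower with BMS (-0.44 ± 0.07, edgeR adjusted p = 1.72e-05).

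Of the 3 tested genes that make or clear oxysterols, CH25H, the cholesterol 25-hydroxylase whose product is an LXR ligand, had 18.8 and 12.9 CPM in KO LPS BMS, 48.2 and 58.4 in KO LPS, 5.74, 5.54 and 5.7 in KO, 35.2 and 29.7 in WT LPS, and 4.59, 4.37 and 5.2 in WT. It was 9.4-fold higher in KO LPS than in KO (3.23 ± 0.14, edgeR adjusted p = 3.55e-14) and 6.85-fold higher in WT LPS than in WT (2.78 ± 0.14, edgeR adjusted p = 5.88e-13). BMS lowered it against KO LPS (-1.76 ± 0.14, edgeR adjusted p = 3.24e-09), to a level still above KO (1.47 ± 0.15, edgeR adjusted p = 5.56e-08). CYP27A1, which makes another oxysterol, was lower in KO than in WT (-0.55 ± 0.07, edgeR adjusted p = 4.6e-05).

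The last list held lipoprotein receptors that MYLIP acts on and other lipid uptake genes. These are transcript levels, whereas MYLIP acts on the receptor proteins. Of its 9 tested genes, 5 were called higher, 1 lower and 3 were not called in KO LPS BMS against KO LPS, where 47.8% of all genes were called. The 1 called lower was VLDLR (-1.51 ± 0.38, edgeR adjusted p = 0.00241). Its level was low, at 0.63 and 0.837 CPM in KO LPS BMS and 2.39 and 1.85 in KO LPS. MSR1, the class A scavenger receptor, had 112 and 104 CPM in KO LPS BMS, 71.9 and 63.7 in KO LPS, 90.6, 85.7 and 90.1 in KO, 27.2 and 28.6 in WT LPS, and 50.7, 48.6 and 49.6 in WT. It fell with LPS in both genotypes, unlike CD36, and was higher in the knockout with and without LPS (KO LPS against WT LPS 1.28 ± 0.08, edgeR adjusted p = 8.45e-11, and KO against WT 0.84 ± 0.06, edgeR adjusted p = 4.45e-10). LRP1, a broad lipoprotein receptor, had 952 and 1080 CPM in KO LPS, 1270, 1470 and 1430 in KO, 460 and 522 in WT LPS, and 1050, 1210 and 1160 in WT, and its fall with LPS was smaller in the knockout by 0.77 ± 0.11 (edgeR adjusted p = 0.000711).

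The genes whose pattern over the 12 libraries was most like that of each member were found as those with the smallest root mean square difference of log2 CPM after centring, among 10579 genes. For ABCA1 these were RAP2C (0.06), DESI1 (0.064), UBE2D1 (0.075), SDCBP (0.077) and SLC35F5 (0.079), where the root mean square of ABCA1 itself about its own mean was 0.515. For ABCG1 they were VWA5A (0.086), MAP3K3 (0.088), LIG1 (0.094), VSIR (0.094) and MFNG (0.104), where that of ABCG1 was 0.469. VSIR was also among the 5 for SCARB1 (0.113), where TPCN1 was closest (0.096). The closest for the other members were HK2 for NR1H3 (0.148), MCRIP1 for NR1H2 (0.07), ARHGEF11 for MYLIP (0.099), SCARB2 for APOC1 (0.099), UNC119 for PLTP (0.086), USP5 for LPCAT3 (0.092) and DNAJA1 for CD36 (0.112). No member was among the 5 closest genes of another. These patterns rest on 5 group means, and they are a description with no test.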

How the data were processed

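RNA sequencing libraries from 12 samples of H1-derived iMGLs in 5 groups were analysed, with groups and replicate numbers from the sample titles. The authors deposited a single count table with unnormalized reads for each gene and library. TRIzol extraction and a NEBNext Ultra kit were used, per the labels' protocols. CASAVA 1.7, Cufflinks and GRCh38 are named per the submitters' processing notes, while aligner, counter, strand setting and annotation were not given in the sources used here. Of 57992 gene IDs, 24552 had no count. Symbols came from a gene name table for 56948 IDs and from GENCODE 29 for 440 more, and 604 had none.

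Genes passing edgeR's low-count filter (16022) were tested with edgeR 4.0.16 (R 4.3.3), using TMM factors, 1 mean per group over all 12 libraries, the robust quasi-likelihood F test and Benjamini-Hochberg adjustment over all genes tested, within each of 7 comparisons. Calls are at an adjusted p under 0.05. The SE is the log2 fold change divided by the square root of F. The common biological coefficient of variation was 0.064. Exon lengths and positions are from GENCODE 29. The code was tested on simulated counts. The alternatives were DESeq2 1.42.0, RLE factors, library size only, no filter, only the groups compared, a replicate block and leaving out each library.

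The members and lists were chosen with earlier results of these data known. Every member was eligible to be named in every comparison, and members not called are partly given as counts. From each pathway list and comparison, genes were named among the 2 called per direction with the lowest adjusted p, and for each member the 5 genes of at least 5 CPM with the most similar pattern. Values of these genes in comparisons where the rule did not name them, and the genes too low to test, were added after their values were seen. A gene of the pathway lists is counted but not reported here. The CPM of 3 reads marks a counting floor and is no interval.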

Additional observations from a re-analysis of the deposited data

Results flagged for a closer look

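The LPS response differed between knockout and wild type, by the edgeR test of the difference itself, for 3 of the 10 genes. Of the 36 tested genes of the pathway lists, 11 were called more positive in the knockout and 4 less positive. Over all genes tested 12% were called. The 12 genes of the lists named below are at most 2 per list and direction. Each value is the log2 response of the knockout (KO LPS against KO) minus that of wild type (WT LPS against WT). CD36, the fatty acid and lipoprotein scavenger receptor, had -0.79, NR1H3, LXR alpha, had 0.53, and ABCG1, the sterol exporter, had 0.31. ABCG1 is the least secure of these, since 12 of 18 alternatives ended its call. NR1H3 shares exon bases with ACP2, whose own response was also more positive in the knockout (0.26, edgeR adjusted p = 0.0451).

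Responses that were less positive in the knockout were also found for SMPDL3A (-0.96), LPL (-0.90), LRP8 (-0.68) and FABP5 (-0.35), 4 genes that were called higher with LPS in wild type. More positive responses were found for EEPD1 (0.96), LRP1 (0.77), RXRA (0.60), PLIN2 (0.59), OSBPL1A (0.54) and SCD (0.33), which were called lower with LPS in wild type, and for CYP27A1 (0.51) and NPC1 (0.49), which were not called in wild type. The calls for CYP27A1 and FABP5 were lost without the second WT LPS library, and that for FABP5 also without the second WT library. No group held 4 or more libraries, so single libraries were not screened for outlying values.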

How the results depend on the processing

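The 10 genes had 1260 values under the alternatives. Of these 1167 kept their side of the threshold, 61 lost a call, 31 gained one and 1 called value changed sign. The 1167 include values called in neither setting whose sign changed, such as NR1H2 in KO LPS against KO (-0.04 without the second KO LPS library). Counted in this way, 42 of 70 results changed under none. The called value that changed sign was PLTP in KO LPS BMS against KO, at -0.05 when libraries were scaled by size alone. That scaling moved the median of all genes by -0.29 in WT LPS against WT, -0.25 in KO LPS against KO, -0.08 in KO LPS BMS against KO LPS and -0.34 in KO LPS BMS against KO. Under it the share of calls that were higher was 26.7% (48.4% with TMM), 25.5% (54.7%), 37.1% (46.6%) and 26.1% (48.4%) in that order, and in the interaction it was 65.3% (53.5%, and 43.5% with RLE factors). It also turned the sign of NCOA3 (-0.12) in WT LPS against WT, and the signs of SCARB2 (-0.15), MSR1 (-0.05), OLR1 (-0.12) and PLIN2 (-0.01) in KO LPS BMS against KO.

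Genes of the set called in KO against WT numbered 4, but 2 under DESeq2 and 2 with the replicate block. Deviations of same-numbered KO and WT libraries from their group means correlated at 0.011 to 0.253 (3 pairs, 10588 genes), against -0.228 to 0.202 for other numbers. The third WT library was closest to the second KO library. Over all groups, 21 same-numbered pairs ran between -0.468 and 0.464 and 36 others between -0.464 and 0.468. In a group of 2 libraries the deviations are mirror images, so these ranges match by arithmetic and cannot decide on pairing. Same-numbered KO and KO LPS libraries were at 0.424 and 0.464, and those of WT LPS and KO LPS at -0.468. The first WT library was at 0.369 with the first KO LPS library. The signs of same-numbered pairs were mixed, which does not settle whether the numbers are pairs. The main fit did not take them as pairs. With only the groups compared, where 2 libraries a group set the spread, KO LPS against WT LPS called 2660 genes in place of 4900. Of the 10 it called 1 in place of 5. In KO LPS BMS against KO LPS the same setting called 6593 genes in place of 7658, and 7 of the 10 in place of 6. The cause of these changes was not tested.

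Leaving out 1 library at a time gave these ranges. Genes called ran over 2593 to 3857 in KO against WT (3463 with all), 8052 to 9949 in WT LPS against WT (9560), 6037 to 7375 in KO LPS against KO (7182), 3005 to 5549 in KO LPS against WT LPS (4900), 1162 to 3079 in the interaction (1920), 6242 to 7869 in KO LPS BMS against KO LPS (7658) and 8646 to 10470 in KO LPS BMS against KO (10052). Of the 10 genes, the calls ran over 1 to 5, 6 to 8, 7 to 8, 2 to 5, 2 to 4, 6 to 7 and 7 to 8 in the same order. The interaction gave 3079 genes without the first KO LPS library, 1162 without the second and 1212 without the second WT LPS library. KO LPS against WT LPS gave 3005 without the second KO LPS library and 3138 without the second WT LPS library. All 10 genes were above 10 CPM in every library, over the level of 3 reads (at most 0.236 CPM).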
